A study of Homo sapiens with 9 samples.

Results

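SNPH, UNC13A, UNC13B, UNC13D and DOC2B are genes best known from the release of vesicles at synapses, and they were followed in intestinal tumor cells stimulated with bacterial products. They were taken from the count table by gene symbol, each gene identifier once, and make up 5 of its 62710 genes. SNPH was chosen because its counts were higher after flagellin than after ADP-heptose, and UNC13A and DOC2B because their counts rose from near 0. The levels and differences of these 3 genes are therefore a description, and no test is read from them. Intervals given for them take no account of this choice. UNC13B and UNC13D are relatives of UNC13A, and their values had no part in the choice.

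RNA was sequenced from HT-29, an established human colorectal adenocarcinoma cell line that was wild type in every group. The groups were non-stimulated cells, cells given 500 ng/mL ADP-heptose and cells given 500 ng/mL flagellin, with 3 libraries each, and the study's methods give 2.5 h as the time of stimulation. ADP-heptose is an intermediate of lipopolysaccharide synthesis that activates the cytosolic kinase ALPK1, flagellin is the building block of bacterial flagella and activates the receptor TLR5 at the cell surface, and both routes lead to NF-κB. The comparison of both stimuli with non-stimulated cells addressed what tumor epithelial cells transcribe in answer to a bacterial metabolite, with flagellin as a second bacterial stimulus. All values come from 1 cell line at 1 time and dose.

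The libraries held 30770448 to 58272772 counts, and mitochondrial genes took 7.31% to 8.31% of them. Of 12 epithelial markers, 11 were above 1 CPM, the usual unit of counts scaled for library size, in non-stimulated cells and 10 after each stimulus. Their summed level was 8696 to 9114 CPM in non-stimulated libraries, 8920 to 9297 after flagellin and 9530 to 13401 after ADP-heptose, and KRT20 was the 1 epithelial marker past the adjusted p (0.40 on the log2 scale after ADP-heptose, edgeR adjusted p = 0.000941). The neuronal markers ELAVL4, NEFL, NEFM and STMN2 and the leukocyte markers CD3E, CD3D and MS4A1 had no count in any library, and the summed level of the 18 neuronal markers was 34.7 to 39.3 CPM in non-stimulated libraries, 33.8 to 35.6 after flagellin and 33.1 to 35.4 after ADP-heptose. The 12 leukocyte markers summed to 402 to 421, 430 to 439 and 381 to 429 CPM in the same order. In each group only 1 leukocyte marker had a mean above 1 CPM, so a single gene carried nearly all of that sum. Of the neuronal markers, 2 were above 1 CPM in each group. Single markers of other cell types did move with ADP-heptose: ITGAM had 0, 0 and 6 counts before and 59, 42 and 23 after it (edgeR adjusted p = 0.0121), and COL1A1 had 449 to 547 before and 816 to 1019 after (log2 0.41, adjusted p = 0.0311). Their part in the results was not tested. The NF-κB targets CXCL8, CCL20, TNF, TNFAIP3, NFKBIA, ICAM1, BIRC3 and CXCL2 rose after both stimuli by the edgeR adjusted p. The library ADP-heptose 3 stood apart from the other 2 of its group, with standard deviations of the log2 difference over 12168 genes of 0.378 and 0.383 where the other pairs within groups gave 0.135 to 0.196. Results for which it matters are given with and without it.

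In nerve terminals, a vesicle that has docked at the membrane is made ready for fusion by UNC13 proteins, which open the SNARE protein syntaxin so that it can pair with its partners on the vesicle and the membrane. Calcium sensors such as DOC2 proteins and synaptotagmins then couple fusion to calcium. UNC13A and UNC13B are best known from neurons and endocrine cells. UNC13D, also called Munc13-4, primes secretory granules in leukocytes and platelets together with RAB27A, syntaxin 11 and STXBP2. Syntaphilin, the product of SNPH, was found as a syntaxin-binding protein and is known mainly for holding mitochondria in place on microtubules of axons.

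SNPH was highest after flagellin. The non-stimulated libraries held 65, 69 and 60 counts of it. After flagellin the counts were 616, 603 and 512, and after ADP-heptose they were 210, 260 and 153. Every flagellin library was above every ADP-heptose library, and every ADP-heptose library was above every non-stimulated library. On the CPM scale the level was 1.73 ± 0.166 (SD, n = 3) in non-stimulated cells, 16.4 ± 0.673 (n = 3) after flagellin and 4.11 ± 0.647 (n = 3) after ADP-heptose. The fitted difference between flagellin and non-stimulated cells was 3.24 on the log2 scale (SE 0.145, 95% interval 2.92 to 3.56), or 9.45-fold. ADP-heptose gave 1.25 (SE 0.149, 0.93 to 1.58), or 2.38-fold. SNPH was thus above its starting level with both stimuli, and the difference of ADP-heptose minus flagellin was -1.99 on the log2 scale (SE 0.130, -2.27 to -1.71). ADP-heptose 3 was the lowest library of its group, and without it these ADP-heptose differences were 1.38 and -1.86. In bulk RNA, more cells that carry a transcript and more transcript per cell cannot be told apart.

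UNC13A went the other way, with its highest counts after ADP-heptose. It was nearly absent from non-stimulated cells, where the libraries held 0, 2 and 2 counts. Flagellin libraries held 34, 27 and 12 counts, and ADP-heptose libraries held 216, 221 and 123. Here every ADP-heptose library was above every flagellin library, and every flagellin library above every non-stimulated library. The level was 0.0364 ± 0.0316 CPM (SD, n = 3), 0.673 ± 0.259 CPM and 3.70 ± 0.895 CPM in non-stimulated, flagellin and ADP-heptose libraries. The ratio of summed counts over summed library sizes was 104.7 for ADP-heptose against non-stimulated cells, with an exact 95% counting interval of 40.7 to 386, and 19.4 for flagellin (7.25 to 73.0). Without non-stimulated 1, the library with no count, these ratios were 68.3 and 12.6. The level after ADP-heptose was 5.41-fold that after flagellin (log2 2.44, SE 0.328, 1.72 to 3.15). Without ADP-heptose 3 the log2 value was 2.62.

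DOC2B had no count in any non-stimulated library. It had 21, 16 and 19 counts after flagellin and 61, 40 and 54 after ADP-heptose. The order of the groups was that of UNC13A, again with no overlap, but the step between the stimuli was smaller. Mean levels were 0.532 ± 0.0739 CPM (SD, n = 3) after flagellin and 1.05 ± 0.301 CPM after ADP-heptose. Against a floor of 3 counts over the non-stimulated group, DOC2B was at least 38.6-fold higher after ADP-heptose and at least 19.8-fold higher after flagellin. Leaving out non-stimulated 1 lowers these bounds to 25.2 and 12.9, because the floor is then set against fewer reads. The level after ADP-heptose was 1.97-fold that after flagellin (log2 0.98, SE 0.357, 0.20 to 1.76).

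Low counts in this table were more often even than odd: genes with 2 counts were 1.53 to 1.85 times as many as genes with 1 count in each library. The 2 counts of UNC13A in a non-stimulated library can therefore be the mates of 1 read pair. With counts halved to read pairs, the interval of the UNC13A ratio was 28.7 to 869 for ADP-heptose and 5.06 to 168 for flagellin, and the bounds for DOC2B were 19.4-fold and 9.91-fold. These intervals cover counting error only.

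Of the 5 genes, 3 were above non-stimulated cells in every ADP-heptose library, where 15.4% of the 17412 genes tested did the same, and 3 in every flagellin library, against 7.66% of the genes tested. Between the stimuli, UNC13A and DOC2B were higher in every ADP-heptose library (14.2% of genes tested) and SNPH was lower (12.8%). No member lay below non-stimulated cells in every library of a stimulus, as 14.7% of genes tested did after ADP-heptose and 5.19% after flagellin. Since these 3 genes were chosen by these values, nothing is read from the shares.

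**Figure D1:**
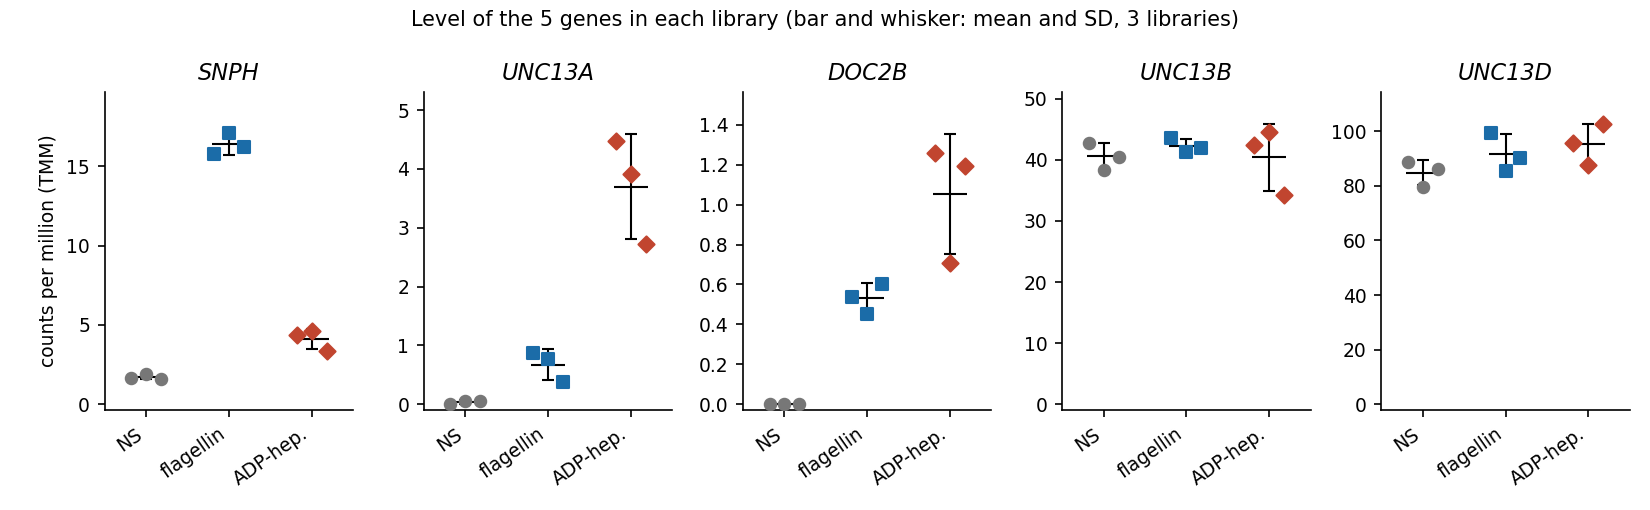
Level of each gene in CPM (vertical axes, linear, each from just below 0) in the 3 non-stimulated (NS, circles), 3 flagellin (squares) and 3 ADP-heptose (diamonds) libraries, with the mean and SD of each group. SNPH peaks at 16.4 CPM after flagellin, UNC13A and DOC2B peak at 3.70 and 1.05 CPM after ADP-heptose, and the groups overlap for UNC13B and UNC13D.

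The other UNC13 genes were present before stimulation and did not pass the test in any comparison. UNC13B had 1379 to 1673 counts in non-stimulated libraries, 1327 to 1697 after flagellin and 1548 to 2513 after ADP-heptose. UNC13D had 2864 to 3463, 2850 to 3878 and 4623 to 4943 counts. The ADP-heptose libraries were the deepest, and on the CPM scale UNC13B was at 40.6 ± 2.21, 42.3 ± 1.13 and 40.4 ± 5.49 (SD, n = 3) and UNC13D at 84.9 ± 4.60, 91.7 ± 7.14 and 95.3 ± 7.56 in non-stimulated, flagellin and ADP-heptose cells. The groups overlapped for both genes. For UNC13B the log2 difference between ADP-heptose and non-stimulated cells was -0.01 (95% interval -0.22 to 0.21, edgeR adjusted p = 0.976), and for UNC13D it was 0.17 (-0.02 to 0.35, adjusted p = 0.239). Changes of UNC13B beyond these bounds in either direction, and losses of UNC13D beyond its lower bound, lie outside the intervals. Flagellin gave 0.06 (-0.15 to 0.27) and 0.11 (-0.07 to 0.30), each with an adjusted p of 1. Without ADP-heptose 3, the lowest library for UNC13B, the difference of UNC13B was 0.11 (adjusted p = 0.298). UNC13C, the remaining gene of the family, had 2, 2 and 0 counts after ADP-heptose and none elsewhere. DOC2A, the nearest relative of DOC2B, had 11, 4 and 11 counts in non-stimulated cells, 8, 4 and 8 after flagellin and 14, 22 and 12 after ADP-heptose, and its difference between ADP-heptose and non-stimulated cells was 0.45 (-0.61 to 1.52, adjusted p = 0.598).

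To compare the genes with each other, CPM was divided by exon length in kilobases, taken over the merged exons of all annotated transcripts. This length was 5709 bases for SNPH, 11188 for UNC13A, 17916 for UNC13B, 7752 for UNC13D and 6448 for DOC2B. Where cells use shorter transcripts, the order and the shares below can differ, and transcript use was not measured. Before stimulation the order was UNC13D (10.9), UNC13B (2.26), SNPH (0.303) and UNC13A (0.00326), with DOC2B at 0. After flagellin SNPH stood above UNC13B in this order, at 2.87 against 2.36, and its lowest library (2.77) was above the highest of UNC13B (2.43). In CPM, without the length, UNC13B was above SNPH after flagellin, at 42.3 against 16.4, so this crossing rests on the lengths used. DOC2B (0.0824) and UNC13A (0.0602) lay far lower after flagellin, and their libraries overlapped. After ADP-heptose the order was UNC13D (12.3), UNC13B (2.25), SNPH (0.720), UNC13A (0.331) and DOC2B (0.163), with no overlap between neighbours. UNC13A made up 0.0253% of the summed per-length level of UNC13A, UNC13B and UNC13D in non-stimulated cells, 0.421% after flagellin and 2.23% ± 0.574 (SD, n = 3) after ADP-heptose. UNC13D held 82.8%, 83.0% and 82.5%, so the granule form remained the main UNC13 transcript in every group.

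The genes lie apart in the genome, except for UNC13D and DOC2B, which share chromosome 17 at a distance of many megabases. On GRCh38 in GENCODE 29, SNPH is at chr20:1266280-1309328 on the plus strand, UNC13A at chr19:17601328-17688365 on the minus strand, UNC13B at chr9:35161992-35405338 on the plus strand, UNC13D at chr17:75827225-75844717 on the minus strand and DOC2B at chr17:142789-181636 on the minus strand. RAD21L1 overlaps SNPH on the same strand and shares exon sequence with it, but it had no count in any library. Of the 50-base stretches of SNPH transcripts, 2.71% also occur in RAD21L1, and for UNC13A and DOC2B the share found in any other gene was 0.0177% and 0.0781%. An antisense gene within UNC13A, AC008761.2, shares no exon base with it and had 9, 0 and 3 counts after ADP-heptose. Whether the counting used strand is not given in the sources used here, so reads of the antisense gene and of UNC13A introns cannot be told apart by strand.

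Promoter sequence was read for the genes that moved, with the SNARE gene STX11, which moved like UNC13A and is described further on. RefSeq on GRCh38.p14 gave windows for 3 of the 5 genes, SNPH, UNC13A and UNC13B. The 250 bases before the annotated start are printed 5′ to 3′ on the strand of the gene, at chr20:1266044-1266293 (plus) for SNPH, chr19:17688355-17688604 (minus) for UNC13A and chr6:144150267-144150516 (plus) for STX11, and capitals mark a match to the κB consensus on either strand, the letters bound by NF-κB.
SNPH: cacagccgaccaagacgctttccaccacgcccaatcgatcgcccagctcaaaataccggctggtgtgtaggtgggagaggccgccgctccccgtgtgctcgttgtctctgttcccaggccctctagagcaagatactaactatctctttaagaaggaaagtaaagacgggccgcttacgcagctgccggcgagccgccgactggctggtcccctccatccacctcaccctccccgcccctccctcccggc
UNC13A: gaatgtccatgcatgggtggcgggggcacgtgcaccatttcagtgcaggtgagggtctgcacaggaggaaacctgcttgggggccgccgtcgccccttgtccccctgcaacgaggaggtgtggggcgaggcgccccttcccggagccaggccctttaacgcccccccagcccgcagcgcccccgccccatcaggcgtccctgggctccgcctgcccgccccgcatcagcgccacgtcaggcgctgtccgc
STX11: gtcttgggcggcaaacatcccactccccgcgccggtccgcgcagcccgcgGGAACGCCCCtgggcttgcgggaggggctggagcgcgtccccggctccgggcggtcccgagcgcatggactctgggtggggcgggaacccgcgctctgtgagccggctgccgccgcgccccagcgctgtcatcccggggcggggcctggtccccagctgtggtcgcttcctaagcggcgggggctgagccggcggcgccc
The motifs searched on both strands were the κB consensus, the AP-1 site TGANTCA and the TATA box TATAAA. None was found in the windows of SNPH, UNC13A and UNC13B. STX11 held 1 κB match at -200 to -191, counted back from the start. Over all 35116 windows of this length, 9.96% held the κB consensus, 6.57% the AP-1 site and 10.7% the TATA box. The share of G and C was 62.4% for SNPH, 72.0% for UNC13A, 78.0% for STX11 and 66.0%, 37.6% and 57.6% for the windows of UNC13B, where the median of all windows was 58.0%. A match is letters only, and the absence of letters in 250 bases says nothing about binding elsewhere.

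SNPH had been picked as the strongest gene that prefers flagellin. A gene is called here when its adjusted p is under 0.05 and its fold at least 2. By this rule 50 genes had less RNA after ADP-heptose than after flagellin (0.287% of genes tested). SNPH was number 9 of them by size, so it was not the strongest by that measure. The genes ahead of it were all low, with group means of at most 0.806 CPM, where SNPH was at 16.4 CPM after flagellin. The other 49 genes were below non-stimulated cells after ADP-heptose, whereas SNPH was above. The first by size, SLC3A1, was at -2.82 on the log2 scale, from a mean of only 0.205 CPM to 0.0256 CPM. Of the 50, SNPH also had the largest fitted difference between flagellin and non-stimulated cells, at 3.24, followed by RIMBP3 at 1.76. From the other side, 37 genes were called higher after flagellin (0.212% of genes tested) and 2 lower (0.0115%). Of the 37, 35 had a still higher fitted level after ADP-heptose, and SNPH and IFIT2, an interferon-stimulated gene, had a lower one. All of these counts use the comparisons by which SNPH was chosen. Its call and its place among these genes are therefore a description and no test of it.

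Genes with the pattern most like each of the 3 were then sought by the root mean square difference of log2 CPM over the 9 libraries, each gene centred on its own mean, among genes within 2 log2 units in level. SNPH had no match as near as those of UNC13A and DOC2B below. This is a description only, since all 3 genes were chosen by their values in these libraries. The nearest were FAM157C, IFIT2, MIR1915HG, ASCL5 and LINC00299 at 0.867 to 1.07 log2 units, where the median of 5397 candidates was 1.35. All of them had smaller steps after flagellin than SNPH, from 0.68 for LINC00299 to 1.66 for FAM157C on the log2 scale. UNC13A had nearer matches, TNFSF18 (0.430), SLC6A7, MIR3142HG, STX11 and HMGB2P1 (0.648), against a median of 2.35 over 5504 candidates. TNFSF18, which encodes the TNF family ligand GITRL, had no count before stimulation, 5 to 16 counts after flagellin and 54 to 78 after ADP-heptose. DOC2B was nearest to ENSG00000289866 (0.557), NPHS1, TNFSF18, HMGB2P1 and C3 (0.787), against a median of 2.01 over 4410 candidates. Since most genes moved little, these medians mainly reflect the size of each gene's own steps. A distance below them is therefore not read as a special likeness. TNFSF18 and the pseudogene HMGB2P1 thus stood on both lists. C3, the central complement component, had 0 to 2 counts before stimulation, 6 to 8 after flagellin and 30 to 44 after ADP-heptose. HMGB2P1 is named as a pseudogene, so its counts are uncertain, and the sequence it shares with other genes was not measured.

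**Figure D2:**
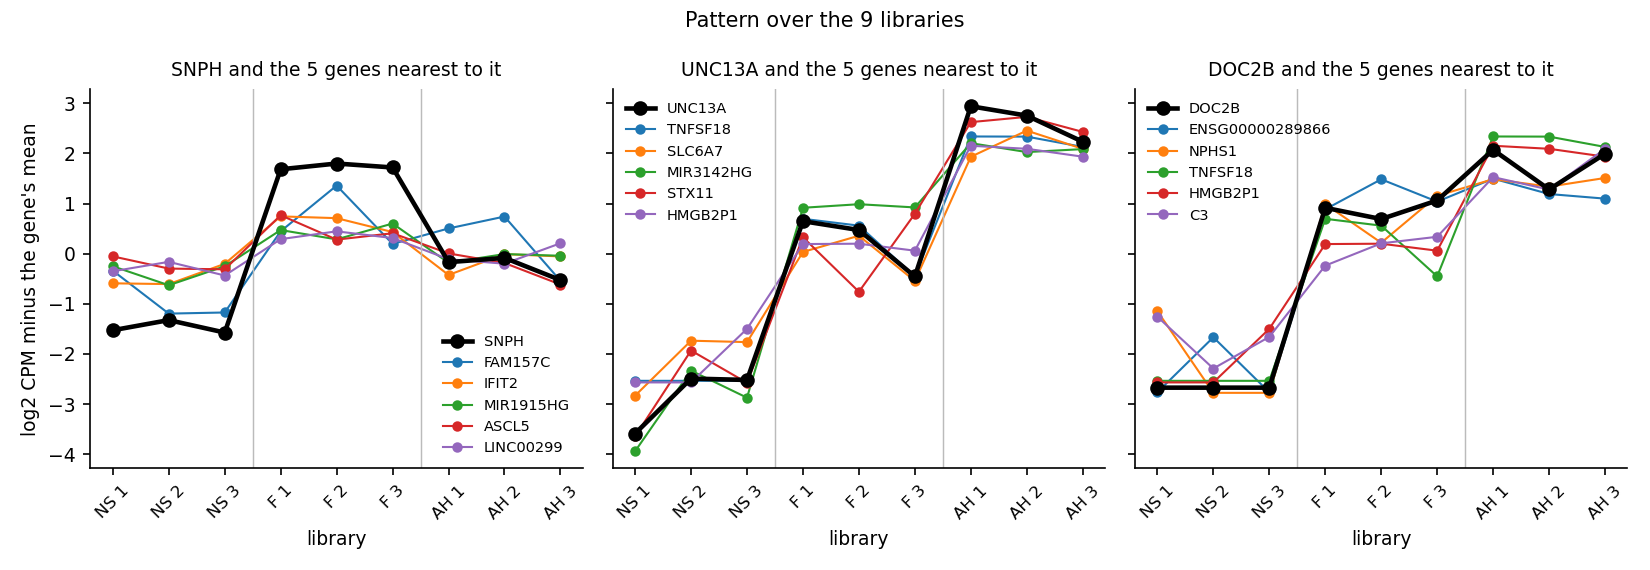
Log2 CPM of SNPH, UNC13A and DOC2B (black) and of the 5 genes nearest to each (colors), each minus its own mean, in the non-stimulated (NS), flagellin (F) and ADP-heptose (AH) libraries on the horizontal axis. SNPH stands above its nearest genes in the flagellin libraries and below them in non-stimulated cells, while UNC13A and DOC2B run closer to theirs, at 0.430 to 0.648 and 0.557 to 0.787 log2 units.

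The partners of these proteins were followed in lists of genes drawn up by function. Among 29 SNARE and SM proteins, the machinery on which UNC13 proteins act, 26 were tested. STX11 was called higher in all 3 comparisons. It had 0, 4 and 2 counts in non-stimulated libraries, 28, 11 and 32 after flagellin and 180, 226 and 147 after ADP-heptose, with no overlap between groups. The ratio of summed counts was 68.9 for ADP-heptose (exact counting interval 31.5 to 189, edgeR adjusted p = 8.19e-06) and 12.6 for flagellin (5.49 to 35.4, adjusted p = 0.0343), and ADP-heptose exceeded flagellin by 2.43 on the log2 scale (SE 0.365, adjusted p = 0.000912). The flagellin call was lost without flagellin 1 (adjusted p = 0.171), flagellin 3 (0.152), non-stimulated 1 (0.158), non-stimulated 2 (0.0713) or non-stimulated 3 (0.198), and with the replicate number as a block (0.150). With counts halved to read pairs, the counting intervals of the STX11 ratios were 23.4 to 337 for ADP-heptose and 4.02 to 64.6 for flagellin. The share of all genes tested called higher was 2.89% after ADP-heptose, 0.212% after flagellin and 2.06% for ADP-heptose above flagellin. No other SNARE or SM gene was called. STX3, VAMP8 and VAMP3 had the highest levels and differed by -0.13, 0.25 and 0.04 after ADP-heptose (edgeR adjusted p = 0.328, 0.319 and 0.721).

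Smaller changes passed the adjusted p alone, as 7.48% of all genes did upward and 4.42% downward after ADP-heptose. After flagellin the shares were 0.368% and 0.0115%, and between the stimuli 5.4% and 2.76%. With ADP-heptose STX19, a syntaxin of epithelial cells, rose by 0.76 (edgeR adjusted p = 0.000568) and STXBP2, the partner of STX11 in granule secretion, rose by 0.55 (adjusted p = 0.0316). VAMP1 fell by 0.56 (adjusted p = 0.0212) and VAMP4 fell by 0.43 (adjusted p = 0.0254). NAPB, which helps to take SNARE complexes apart, was lower with ADP-heptose than with flagellin at -0.51 (adjusted p = 0.0402). The median over the 26 genes was 0.04 after ADP-heptose and 0.02 after flagellin, beside 0.01 and 0.00 over all genes tested. STX1A, the syntaxin on which UNC13A acts in neurons, was at 62.2 CPM before and 70.8 CPM after ADP-heptose (0.19, adjusted p = 0.222), and its synaptic partner SNAP25 was at or near 0 in every library and was not tested.

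The list of priming factors and calcium sensors, the one nearest to UNC13A and DOC2B, counted 40 genes. Only 20 of them passed the filter on low counts, and 11 had no count at all. None of the 20 passed the adjusted p against non-stimulated cells with either stimulus. Over all genes tested, 7.48% passed it upward and 4.42% downward after ADP-heptose. After flagellin the shares were 0.368% and 0.0115%, so nothing is read from this absence. RPH3A, SYT3, SYT6, SYT9, CPLX3, CPLX4, RIMS1, RIMS4, ERC2, PPFIA2 and SV2B were those without a count. The most abundant were SYT13, PPFIA1 and SYT7, with log2 differences of -0.14, -0.14 and 0.09 after ADP-heptose and adjusted p of 0.288, 0.439 and 0.509. RIMBP3, whose own part in priming was not examined, was at -3.34 on the log2 scale between the stimuli. It was the single gene of the list called in this comparison (edgeR adjusted p = 0.0106). Of all genes tested, 0.287% were called lower and 2.06% higher in this comparison. It had 18, 10 and 17 counts after flagellin, 2, 4 and 0 after ADP-heptose and 6, 2 and 6 before stimulation. Its transcripts share 90.5% of their 50-base stretches with other genes, chiefly RIMBP3B and RIMBP3C, so its counts are uncertain, and the call was lost without flagellin 1 (adjusted p = 0.0506) or flagellin 3 (0.0566). The median over the 20 genes was -0.08 after ADP-heptose and -0.05 after flagellin.

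RAB27 and RAB3 proteins with their effectors bring granules to the membrane before UNC13 proteins act. Of 23 genes, 22 were tested and RAB3A was called lower after ADP-heptose (0.471% of all genes tested were), with 50, 70 and 55 counts before and 39, 31 and 43 after, in deeper libraries. Its difference of -1.03 had an adjusted p of 0.0445, which passed 0.05 in only 8 of 16 alternatives. It was lost without ADP-heptose 1 (adjusted p = 0.0760), ADP-heptose 2 (0.115), flagellin 2 (0.0659), non-stimulated 1 (0.0628), non-stimulated 2 (0.164) or non-stimulated 3 (0.100), in the fit of the 6 libraries compared (0.0642) and with a block (0.0931). RAB27B fell by 0.38 (edgeR adjusted p = 0.0298), while SYTL3, a RAB27 effector, rose by 0.82 (adjusted p = 0.0366) and LYST, a regulator of lysosome-related organelles, rose by 0.51 (adjusted p = 0.0261). RAB27A, the partner of UNC13D, was at -0.07 (adjusted p = 0.689). RAB3IP, an exchange factor for RAB proteins, was higher with ADP-heptose than with flagellin at 0.31 (adjusted p = 0.0271). RAB11A, MLPH and MADD had the highest levels and differed by 0.11, 0.08 and -0.13 after ADP-heptose (adjusted p = 0.266, 0.623 and 0.254). The list median was -0.07 after ADP-heptose and -0.01 after flagellin.

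For SNPH the fitting company is the machinery that moves or holds mitochondria. Of 24 such genes 22 were tested and none was called in any comparison. Of all genes tested, 2.89% were called higher and 0.471% lower after ADP-heptose. After flagellin the shares were 0.212% and 0.0115%, and between the stimuli 2.06% and 0.287%. SYBU, which links vesicle cargo to kinesin in axons, fell by 0.68 after ADP-heptose (edgeR adjusted p = 0.000315) and stood at -0.63 between ADP-heptose and flagellin (adjusted p = 0.000736), with -0.05 after flagellin (adjusted p = 1). MIEF1 fell by 0.37 (adjusted p = 0.0133) and MIEF2 fell by 0.44 (adjusted p = 0.0176), both adaptors of mitochondrial fission. No gene of the list passed the adjusted p after flagellin, the stimulus with the highest SNPH. Only 0.368% of all genes tested passed it upward and 0.0115% downward there, so nothing is read from this absence. The abundant KIF5B, MYO19 and FIS1 differed by -0.02, 0.00 and 0.26 after ADP-heptose (adjusted p = 0.900, 0.988 and 0.308). The list median was -0.01 after ADP-heptose and 0.02 after flagellin.

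**Figure D3:**
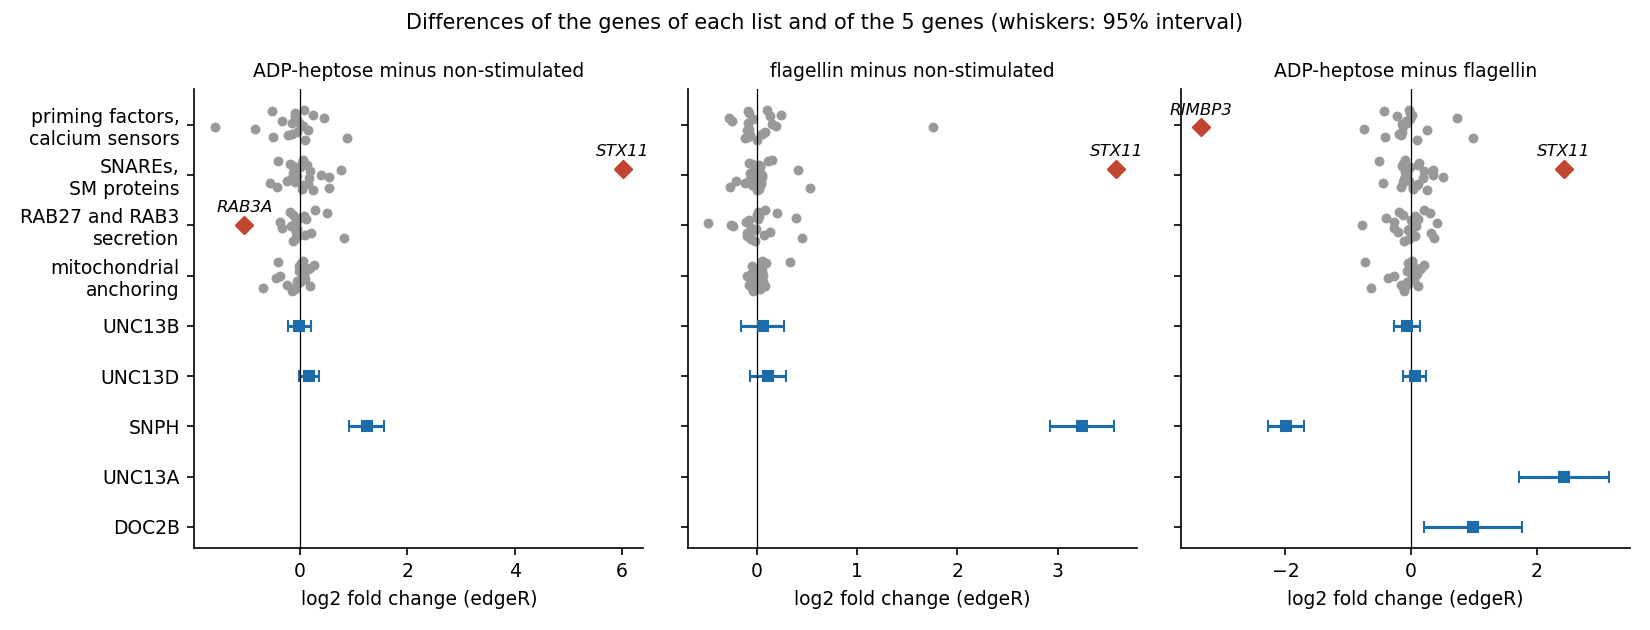
Log2 fold changes (horizontal axes, edgeR) of the tested genes of 4 functional lists (grey points, red diamonds where called) and of the 5 genes with 95% intervals (blue squares) in the 3 comparisons. UNC13A and DOC2B are drawn only between the stimuli, since they were at or near 0 in non-stimulated cells. STX11 stands alone to the right at 6.02, 3.58 and 2.43, SNPH is at 1.25, 3.24 and -1.99, and most list genes lie near 0.

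Finally, the genes beside the 5 genes on their chromosomes were examined, up to 3 protein-coding genes on each side within 250 kb. Of 27 such neighbors 23 were tested. Against non-stimulated cells, 3 were called higher after ADP-heptose and none after flagellin by edgeR, for which the share over all genes was 2.89% and 0.212%. SDCBP2, which encodes the adaptor protein syntenin-2, ends 581 bases beyond SNPH on the opposite strand. It had 563, 459 and 368 counts before stimulation, 695, 605 and 633 after flagellin and 1181, 1387 and 1520 after ADP-heptose. SDCBP2 was thus highest where SNPH was not: it rose by 1.15 after ADP-heptose (edgeR adjusted p = 0.000276), had 0.57 after flagellin (adjusted p = 0.433) and was 0.58 higher with ADP-heptose than with flagellin (adjusted p = 0.0326). The second, AL136531.2, had 4, 0 and 5 counts before stimulation, 12, 15 and 19 after flagellin and 21, 22 and 24 after ADP-heptose. Its difference was 2.45 after ADP-heptose (adjusted p = 0.0267) and 2.42 after flagellin (adjusted p = 0.431, but 0.0489 with DESeq2), with 0.03 between the stimuli (adjusted p = 0.983). It overlaps SDCBP2 and FKBP1A on their strand, so its counts are uncertain. FKBP1A, the next gene, was at 0.02 (adjusted p = 0.913).

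Beside UNC13D, TRIM47, a ubiquitin ligase gene at a distance of 29444 bases, was called higher. It rose by 1.43 after ADP-heptose (SE 0.102, edgeR adjusted p = 1.19e-06) and was 1.28 above its level after flagellin (adjusted p = 4.7e-06), while UNC13D and the genes next to it, UNK at -0.01 and WBP2 at 0.24, did not pass the edgeR test (adjusted p = 0.929 and 0.0708). With DESeq2, WBP2 had an adjusted p of 0.0374 at 0.24. H3-3B on the other side rose by 0.33 (adjusted p = 0.0137). Beside UNC13A, MAP1S, which encodes a microtubule-associated protein, rose by 0.62 (adjusted p = 0.00926), and COLGALT1 on the other side was at 0.04 (adjusted p = 0.758). RPH3AL next to DOC2B, itself an effector of RAB27 and RAB3 in granule release, was at 0.15 after ADP-heptose (adjusted p = 0.418) and -0.10 after flagellin (adjusted p = 1). Around UNC13B none of the 5 tested neighbors passed the adjusted p in these 2 comparisons. Over all genes tested, 7.48% passed it upward and 4.42% downward after ADP-heptose. After flagellin the shares were 0.368% and 0.0115%, so nothing is read from this absence.

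**Figure D4:**
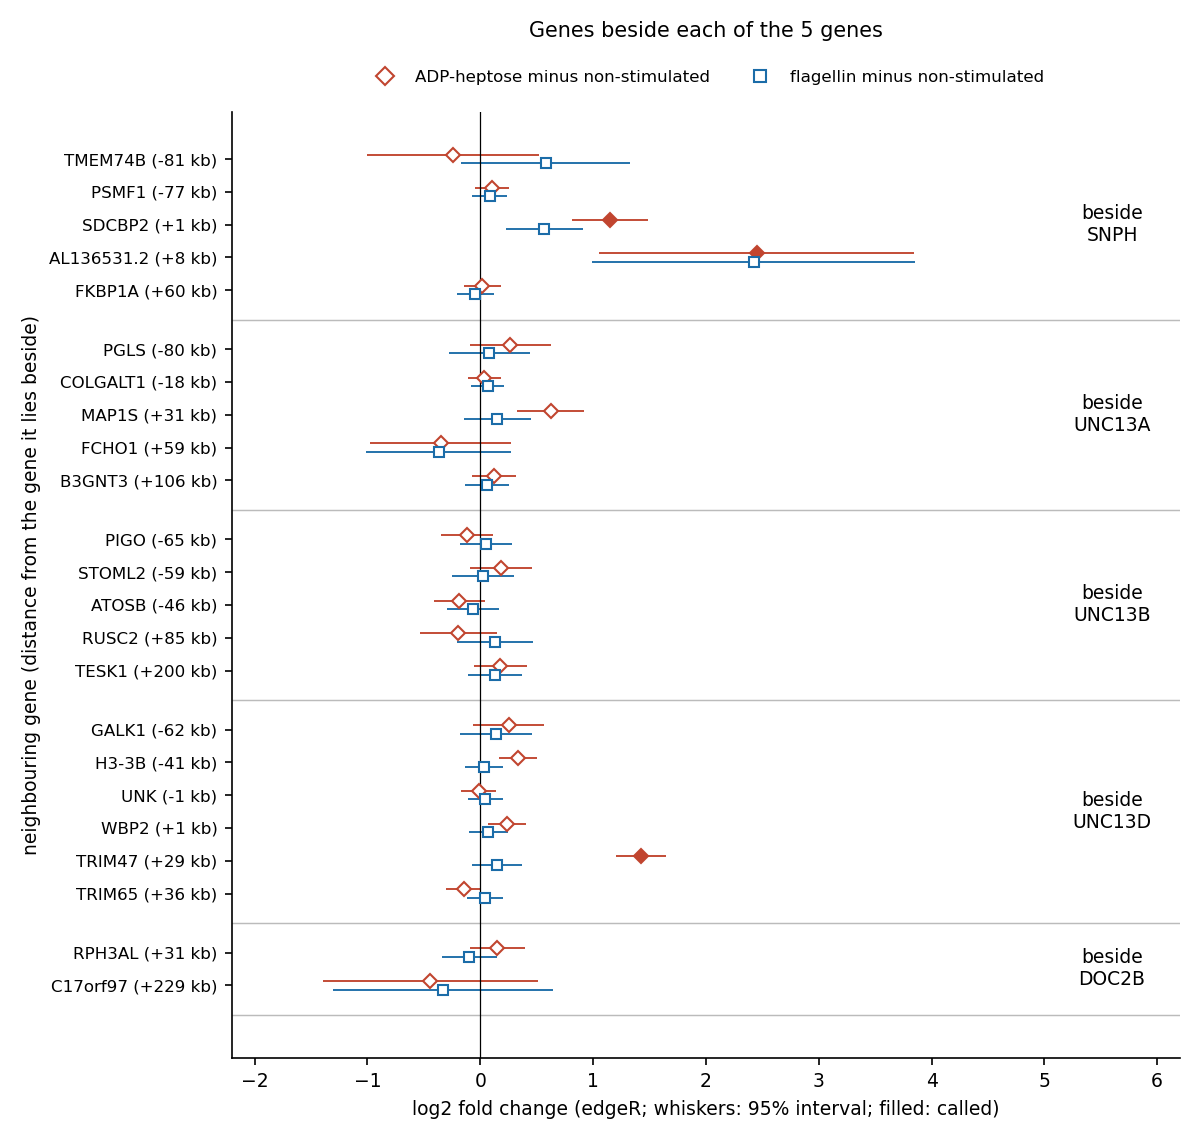
Log2 fold changes (horizontal axis, edgeR, with 95% intervals) of the 23 tested neighbors, grouped by the gene they lie beside and ordered by position, with the distance in kb in the labels. Filled symbols mark called genes: SDCBP2 (1.15) and AL136531.2 (2.45) beside SNPH and TRIM47 (1.43) beside UNC13D, all after ADP-heptose, while AL136531.2 is at 2.42 without a call after flagellin and no neighbor of UNC13A, UNC13B or DOC2B was called.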

How the data were processed

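Poly(A) RNA of HT-29 cells was sequenced as paired 150-base reads, 9 libraries in 3 groups of 3. Per the labels the authors aligned with HISAT2 and counted with featureCounts, and the deposited table holds raw counts per gene. Versions, genome build, annotation, strandedness and the handling of multi-mapping reads are not given in the sources used here. The table has 62972 lines, and 232 gene identifiers listed more than once with identical counts were kept once. Of 62710 identifiers, 58274 were found in GENCODE 29, which gave exon lengths and positions.

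The test was run in edgeR 4.0.16 under R 4.3.3 on these counts (TMM, filterByExpr, robust quasi-likelihood F test) over all 9 libraries, 17412 genes tested, with Benjamini-Hochberg adjustment over them in each comparison. The study's rule of an adjusted p under 0.05 and at least 2-fold was used for calls. DESeq2 1.42.0, other scalings, other filters, a replicate block and leaving out each library were alternatives, and counts halved to read pairs were added after the data were seen. The fit was tested on simulated data. No p is printed for SNPH, UNC13A and DOC2B, which were chosen by their values. SNPH is counted among called genes only to describe its place, and its call is not read as a test.

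The genes and the lists were chosen with earlier results of these data known. Named are the 5 genes, list genes called in a comparison, the 3 most abundant of each functional list, the neighbors and the 5 nearest in pattern. List genes past the adjusted p alone, UNC13C, DOC2A, STX1A, SNAP25, RAB27A, SLC3A1, KRT20, ITGAM and COL1A1 were named after their values were seen. Replicates were numbered by the labels, and the deviations of same-numbered libraries had correlations of -0.379 to 0.222. ADP-heptose 3 stood apart and weighs on those that include an ADP-heptose library, so these cannot show whether the numbers pair libraries. Between flagellin and non-stimulated libraries they were -0.0572 to 0.0370. The main fit did not treat the numbers as pairs, and a replicate block was an alternative. The study speaks of 3 independent experiments. Where libraries are technical repeats, p-values measure only that spread.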

Additional observations from a re-analysis of the deposited data

Results flagged for a closer look

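Among the genes of the 4 lists of exocytosis and mitochondrial transport and the neighbors, 3 were called between the stimuli by edgeR at an adjusted p under 0.05 and at least 2-fold. Tested were 20 priming, 26 SNARE, 22 RAB and 22 mitochondrial genes and 23 neighbors. Of all genes tested, 2.06% were called higher and 0.287% lower in this comparison, so nothing is read from the count. STX11 was 2.43 higher on the log2 scale with ADP-heptose than with flagellin, as UNC13A was. TRIM47, a neighbor of UNC13D, was 1.28 higher. RIMBP3 was lower with ADP-heptose, at -3.34, from at most 18 counts in a library and with transcripts that it shares for the most part with its copies.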

How the results depend on the processing

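SNPH, UNC13A and DOC2B kept the direction of each difference in every alternative run. SNPH ranged from 1.12 to 1.38 (ADP-heptose), 3.19 to 3.32 (flagellin) and -2.10 to -1.86 (between them), UNC13A from 2.17 to 2.67 and DOC2B from 0.83 to 1.20 between the stimuli. Leaving out 1 library moved the UNC13A ratios to 68.3 to 142 and 12.6 to 26.3, and the DOC2B bounds to 25.2 to 45.9 and 12.9 to 21.2. Halved counts gave DOC2B bounds of 19.4 and 9.91.

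Leaving out 1 library took UNC13B from -0.0889 to 0.105 after ADP-heptose and from -0.142 to 0.0520 against flagellin. It turned to 0.105 and 0.0520 without ADP-heptose 3, and to 0.0343 after ADP-heptose without non-stimulated 1. UNC13D turned to -0.0670 between the stimuli with library totals, which moved the median of all genes to -0.13 and -0.11 in the ADP-heptose comparisons. The cause of the other turns was not tested, and UNC13B and UNC13D passed no test in any alternative.

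Without a fold threshold 2072, 66 and 1421 genes were called in all (586, 39 and 409 with it), and without a filter on low counts 68 after flagellin. Library totals gave 429 higher and 175 lower genes after ADP-heptose in place of 504 and 82, and 309 and 93 between the stimuli in place of 359 and 50. Without a fold threshold the SNARE list had 5 (ADP-heptose) and 2 (between stimuli) genes, the RAB list 4 and 1, and the mitochondrial list 3 and 1. The 1 RAB gene (RAB3A) was 0 in the fit of 6 libraries, and RIMBP3 was untested at a minimum mean of 10 counts, which left 0. Leaving out 1 library gave 0 to 1 for these and for STX11 after flagellin.

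With the replicate number as a block, the RAB list after ADP-heptose and the SNARE list after flagellin fell to 0 calls. SNPH was then 1.24 after ADP-heptose and 3.24 after flagellin, and counts over all genes were 523, 33 and 376.

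Depth limits DOC2B and UNC13A in non-stimulated cells, where 3 counts equal 0.0768 to 0.0835 CPM. UNC13C and 14 of the 40 priming genes had at most 3 counts in every library.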
